A study of Mus musculus with 4 samples.

Results

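The 5 muscarinic acetylcholine receptor genes of the mouse, Chrm1, Chrm2, Chrm3, Chrm4 and Chrm5, were followed through the nuclei of the hippocampus. They were taken by gene symbol as 5 of the 32285 genes measured. The nuclei came from 2 WT mice and 2 Cyfip2+/R87C (KI) mice, all 28 weeks old, with 1 single-nucleus RNA-seq library per mouse. KI mice carry a heterozygous knock-in allele of Cyfip2, the gene of a subunit of the actin-regulating WAVE complex. The allele is present in every cell of the animal, and KI mice of this age have recurrent seizures. The treatment label of KI replicate 2 spelled the allele R88C, and the library was kept in the KI group that its genotype label names. All libraries shared 1 batch label. The data address which neurons carry each receptor transcript and whether that level differs between Cyfip2+/R87C and WT mice.

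Muscarinic receptors are the G protein-coupled receptors for acetylcholine, which septal cholinergic axons release in the hippocampus. Chrm1, Chrm3 and Chrm5 encode receptors that couple to Gq, activate phospholipase C and close the potassium channels built from Kcnq subunits. Chrm2 and Chrm4 encode receptors that couple to Gi/o, lower cyclic AMP and open potassium channels built from Kcnj subunits, and Chrm2 is well known on hippocampal GABAergic interneurons.

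In the GRCm38 build, Chrm1 lies on the plus strand at chr19:8663789-8683587 and Chrm3 on the minus strand at chr13:9875486-10360847. Chrm5 lies on the minus strand at chr2:112479171-112480769. Of the Gi/o-coupled receptors, Chrm2 lies on the plus strand at chr6:36388084-36528414 and Chrm4 on the plus strand at chr2:91927249-91928688. The 5′ end of Chrm2 overlaps 2108 bases of 9330158H04Rik, a long non-coding RNA gene on the opposite strand, which is measured separately in these libraries. The 157 bases just before the earliest annotated start of Chrm2, at chr6:36387834-36387990 on the plus strand of GRCm38.p6 (RefSeq), are shown because Chrm2 was the receptor whose level differed most between neuron classes. Every one of those bases lies in exons of 9330158H04Rik. CpG dinucleotides are in capitals.
Chrm2 upstream: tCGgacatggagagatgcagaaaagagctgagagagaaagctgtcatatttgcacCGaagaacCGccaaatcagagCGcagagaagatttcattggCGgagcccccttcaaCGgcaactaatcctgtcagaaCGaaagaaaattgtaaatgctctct
The stretch has 46.5% GC and 7 CpG dinucleotides. The medians over the same stretch of 32851 RefSeq promoters were 51% GC and 3 CpG dinucleotides.

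The libraries held 12665 to 16055 barcodes and 73009975 to 80913580 UMIs, with a median of 3868 to 4699 UMIs per kept nucleus. After filtering and doublet removal 52032 nuclei remained. Of these, 28015 fell in 5 neuron classes named from markers, namely 12540 dentate gyrus (DG) granule neurons, 7578 CA1 and 3511 CA3 pyramidal neurons, 246 mossy cells of the hilus and 4140 inhibitory neurons. A further 16780 nuclei stayed unnamed. The receptors and their signalling genes were left out of the genes used for clustering. All markers fixed for these 5 classes were detected in them. The mossy cells also carried 3628 to 4241 CPM of the CA3 marker list, against 2021 to 2415 CPM in the CA3 class itself, so their separation from CA3 neurons rests on the mossy cell list, at 269 to 392 CPM in mossy cells and 75.1 to 89.5 CPM in CA3 neurons. DG granule neurons came from different clusters in each genotype. A cluster led by Dsp and Glis3 held 94.9% and 94.5% of them in the WT libraries against 9.24% and 26.9% in the KI libraries, and a cluster led by Gm6999 and Pappa held 4.94% and 5.30% against 89.5% and 65.0%. Cyfip2 stood at 201 and 201 CPM in the DG granule neurons of the WT libraries and at 194 and 176 CPM in those of the KI libraries, and the knock-in alters a codon of it, so its level does not check the labels. Malat1, a nuclear long non-coding RNA, took 65947 to 104563 CPM of a neuron class in WT and 104416 to 168654 CPM in KI, and in each class both KI libraries lay above both WT libraries. Results that rest on 1 library are given with and without it. Levels are UMIs of the receptor per 1000000 UMIs of the class in that library (CPM). They are not corrected for gene length, so each receptor is compared only with itself.

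Chrm3, which encodes a Gq-coupled receptor, had the widest range among the Gq-coupled members. In CA1 pyramidal neurons it stood at 1291 and 1190 CPM in the WT libraries against 929 and 1246 CPM in the KI libraries. In DG granule neurons it stood at 52.1 and 48.4 CPM in WT against 32.3 and 50.7 CPM in KI. Every CA1 library therefore lay far above every DG library, a 27.3-fold difference in the fit (log2 difference DG minus CA1 -4.77, SE 0.11, adjusted p = 9.5e-17, edgeR quasi-likelihood test with library as a block). Mossy cells held 1288 and 1267 CPM in WT against 1146 and 1402 CPM in KI, CA3 neurons 1044 and 880 CPM in WT against 583 and 895 CPM in KI. Inhibitory neurons lay between these classes and DG granule neurons in all 4 libraries, at 513 to 586 CPM.

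**Figure D1:**
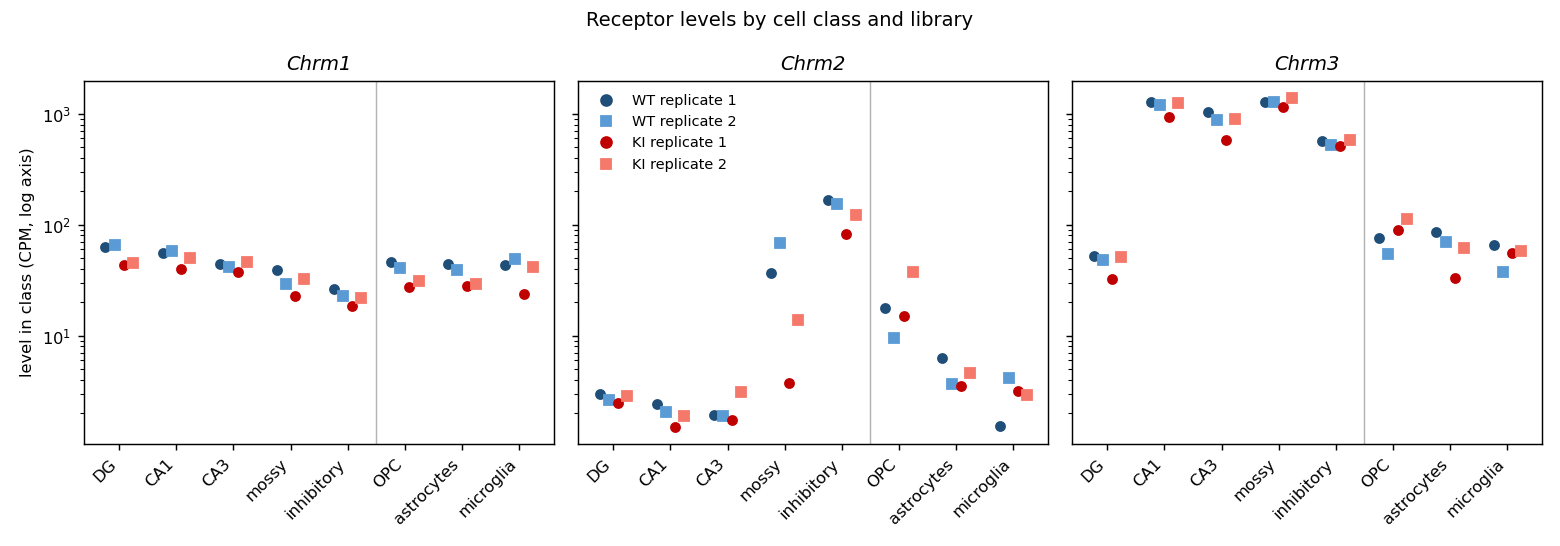
Level of Chrm1, Chrm2 and Chrm3 (CPM, log axis) in each of the 4 libraries, for the 5 neuron classes left of the grey line and 3 glial classes right of it; each point is 1 library. Chrm2 stands at 81.7 to 167 CPM in inhibitory neurons and at 1.48 to 3.12 CPM in DG, CA1 and CA3 neurons, whereas Chrm3 is high in every neuron class but DG, and Chrm1 spans a narrower range over neurons and glia.

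Across the 10 pairs of neuron classes, 24 of 30 tests of Chrm1, Chrm2 and Chrm3 passed an adjusted p of 0.05, where 36.6% of all tests over all genes did (168540 tests). For Chrm3, 9 of 10 pairs passed, and CA1 neurons and mossy cells did not differ beyond the spread (log2 difference -0.05, SE 0.09, adjusted p = 0.772). That pair depended on the clustering, since at a finer resolution CA1 exceeded mossy cells by 0.50 (adjusted p = 0.00688). CA1 exceeded CA3 neurons by 0.44 on the log2 scale (SE 0.09, adjusted p = 0.00103), and exceeded inhibitory neurons by 1.23 (SE 0.09, adjusted p = 1.27e-09). The first of these was 0.12 (adjusted p = 0.519) when nuclei were gated one by one on their markers.

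The low Chrm3 level of DG granule neurons was close to that of cells in which the receptor is not a known marker. After thinning each nucleus to 2000 UMIs, 6.79% to 9.51% of DG nuclei held a Chrm3 UMI, against 7.09% to 15.4% of astrocytes and 5.74% to 9.62% of microglia. Without thinning these shares were 12.9% to 16.6%, 8.78% to 16.0% and 8.13% to 18.3%. The thinned shares rest on 2309 to 4036 DG nuclei per library of 2426 to 4312, on 127 to 335 astrocytes of 205 to 598 and on 52 to 150 microglia of 247 to 405, as shallower nuclei were left out. The unthinned nuclei had medians of 3743 to 4440 UMIs in DG, 1849 to 2390 in astrocytes and 1301 to 1878 in microglia. The DG share lay below the higher of the 2 glial shares in 3 of 4 libraries. Chrm3 in DG nuclei as a whole is therefore not read as above its level in glia. RNA from outside the nuclei was not measured. In CA1 the thinned share was 72.4% to 80.7% (87.7% to 90.8% unthinned), and in mossy cells 88.5% to 93.4%, both above every glial library.

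Chrm1, whose Gq-coupled receptor is the classical postsynaptic one of principal neurons, had a shallower gradient. DG granule neurons stood at 63.3 and 66.2 CPM in WT against 42.9 and 45.4 CPM in KI. CA1 neurons stood at 55.1 and 58.3 CPM in WT against 39.7 and 49.9 CPM in KI. The DG and CA1 levels overlapped, and the fit put them within 0.0020 of each other on the log2 scale (SE 0.09, adjusted p = 0.99). CA3 neurons held 37.3 to 46.1 CPM, mossy cells 22.5 to 38.8 CPM and inhibitory neurons 18.6 to 26.3 CPM. DG exceeded inhibitory neurons by 1.33 on the log2 scale (SE 0.09, adjusted p = 3.38e-10). The neighbours CA1 and CA3 did not pass the test (0.23, SE 0.09, adjusted p = 0.0551). CA3 exceeded mossy cells by 0.56 (SE 0.15, adjusted p = 0.0181), a call lost without WT replicate 2 (adjusted p = 0.0652) or KI replicate 1 (adjusted p = 0.138). Mossy cells exceeded inhibitory neurons by 0.54 (SE 0.16, adjusted p = 0.0208), a call that held only without WT replicate 2 among the fits that left out 1 library.

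Glia also held Chrm1, at 23.7 to 48.6 CPM in OPC, astrocytes and microglia. Within each library DG and CA1 neurons lay above all 3 of these classes, whereas CA3 neurons lay below the highest of them in both WT libraries and inhibitory neurons lay below all 3 in every library. The thinned share with a Chrm1 UMI was 8.29% to 12.2% in DG, 7.91% to 11.2% in CA1 and 3.62% to 5.31% in inhibitory neurons, against 6.67% to 7.87% in astrocytes and 5.77% to 11.4% in microglia. The unthinned shares were 18.4% to 25.3%, 25.4% to 30.3% and 12.5% to 14% in these neurons, against 6.62% to 9.03% in astrocytes and 4.53% to 15.8% in microglia. By thinned share, Chrm1 in inhibitory neurons was below astrocytes and microglia, whereas unthinned it was above astrocytes. Neither share sets a floor, as RNA from outside the nuclei was not measured. The thinned DG share was above those of astrocytes and microglia of the same library in all 4 libraries. The thinned CA1 share was not above that of microglia in WT replicate 2.

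Chrm5, the remaining Gq-coupled receptor gene, was close to the limit of detection, with 0 to 15 UMIs per class and library. In CA1 neurons, the neuron class with most Chrm5 UMIs, it stood at 0.876 and 0.596 CPM in WT against 0.390 and 1.30 CPM in KI, and the KI values span both WT values. These counts are too few to rank the classes. Chrm4, which encodes a Gi/o-coupled receptor, had 0 to 6 UMIs per class and library in the neuron classes and 58 UMIs over all nuclei. In mossy cells Chrm4 had 0 UMIs in every library, which allows up to 3.76 to 6.87 CPM. For both genes the GENCODE model of GRCm38 is 1 coding exon, of 1440 bases for Chrm4 and 1599 bases for Chrm5, with 0 bases of non-coding exon, while the models of Chrm1, Chrm2 and Chrm3 include 4483 to 5104 bases of it. RefSeq extends Chrm4 by 1147 bases and Chrm5 by 438 bases past the 3′ end of those models. Libraries of this kind count the 3′ ends of transcripts, and the part of the gene models in these low counts was not tested.

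Chrm2, which encodes the Gi/o-coupled receptor of GABAergic interneurons, was the receptor most restricted by class. Inhibitory neurons held 167 and 155 CPM in WT against 81.7 and 122 CPM in KI. DG, CA1 and CA3 neurons held 1.48 to 3.12 CPM over all libraries, so no inhibitory library came near any of them. Inhibitory neurons exceeded CA1 neurons 59.1-fold (log2 difference CA1 minus inhibitory -5.88, SE 0.23, adjusted p = 5.38e-14) and DG granule neurons 46.1-fold (-5.53, SE 0.22, adjusted p = 5.5e-14). The 3 pairs among DG, CA1 and CA3 did not pass, but with nuclei gated one by one CA1 lay above CA3 neurons and passed. By share after thinning, 8.47% to 14.8% of inhibitory nuclei held a Chrm2 UMI, against 0.229% to 0.657% of DG, CA1 and CA3 nuclei and 0.299% to 1.97% of astrocytes. Unthinned, the shares were 18.3% to 23.6%, 1.0% to 2.51% and 0.836% to 1.44%. After thinning, Chrm2 in the 3 principal neuron classes was therefore not above the range of astrocytes. OPC held 9.46 to 37.1 CPM of Chrm2.

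Inhibitory neurons made up 7.96% of the nuclei and held 42.2% of the 8349 Chrm2 UMIs. Another 15.3% lay in subicular or cortical excitatory neurons, where Chrm2 stood at 167 and 89.9 CPM in WT against 75.3 and 100 CPM in KI, which overlaps the levels of the inhibitory class. The unnamed nuclei held 36.7%, among them a cluster of 1004 nuclei led by Npsr1, Gm49906 and Tshz2 with 72.7 and 140 CPM in WT against 78.0 and 186 CPM in KI. Chrm2 was thus not confined to inhibitory neurons.

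Mossy cells, excitatory neurons of the hilus, took an intermediate place for Chrm2, with 36.3 and 68.7 CPM in WT against 3.76 and 13.7 CPM in KI. Over both genotypes they lay below inhibitory neurons by 2.03 on the log2 scale (SE 0.26, adjusted p = 6.01e-06) and above DG granule neurons by 3.50 (log2 difference DG minus mossy -3.50, SE 0.38, adjusted p = 4.65e-07). Clustering at the finer resolution left 28 to 70 mossy nuclei per library with 1 to 11 Chrm2 UMIs, at 19.7 and 7.15 CPM in WT against 2.32 and 4.07 CPM in KI. There the difference from CA3 neurons no longer passed (log2 difference CA3 minus mossy -1.25, adjusted p = 0.144).

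Within inhibitory neurons Chrm2 and Chrm3 were spread unevenly over 14 subclusters. Subcluster 13, which was led by Adgrg6, 9330158H04Rik and Meis2 and stayed unnamed, held 1944 and 1551 CPM of Chrm2 in WT and 1246 and 2314 CPM in KI. It had 100 of the 4140 inhibitory nuclei (2.42%) and 1367 of their 3520 Chrm2 UMIs (38.8%). Of its nuclei, 88.0% to 95.8% per library held a Chrm2 UMI, against 16.7% to 21.9% of the other inhibitory nuclei. Its nuclei carried Gad2, which makes GABA, at 370 to 566 CPM, Meis2 at 262 to 414 CPM and Chrm3 at 26.7 to 193 CPM. 9330158H04Rik, the antisense gene whose exons cover the sequence printed above, had 567 UMIs in inhibitory neurons, of which 319 were in subcluster 13.

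Parvalbumin (Pvalb) interneurons, which inhibit the cell bodies of principal neurons, held 221 and 193 CPM of Chrm2 in WT and 91.6 and 110 CPM in KI. Somatostatin (Sst) interneurons, which target dendrites, held 149 and 157 CPM in WT against 62.2 and 85.8 CPM in KI. Neurogliaform-type Lamp5 interneurons held 18.4 and 17.7 CPM in WT against 5.33 and 6.16 CPM in KI. Cnr1 and Vip interneurons were low as well, with genotype means of 5.11 to 21.7 CPM.

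Chrm3 followed another order. Cnr1 interneurons held genotype means of 1116 and 1019 CPM of Chrm3 in WT and KI, and a Cnr1 subcluster reached 1384 to 1755 CPM. Vip interneurons held 721 and 661 CPM and Sst interneurons 603 and 681 CPM. Lamp5 interneurons were at 271 and 302 CPM and Pvalb interneurons at 189 and 233 CPM. Of the inhibitory nuclei with a Chrm2 UMI, 55.5% to 62.9% per library also held a Chrm3 UMI, against 67.9% to 75.1% of the other inhibitory nuclei, which were shallower in each library. Sst interneurons themselves divided, since the Sst subcluster with the least Chrm2 (17.1 to 73.1 CPM) held 1120 to 1182 CPM of Chrm3, and the other 2 held 214 to 573 CPM.

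**Figure D2:**
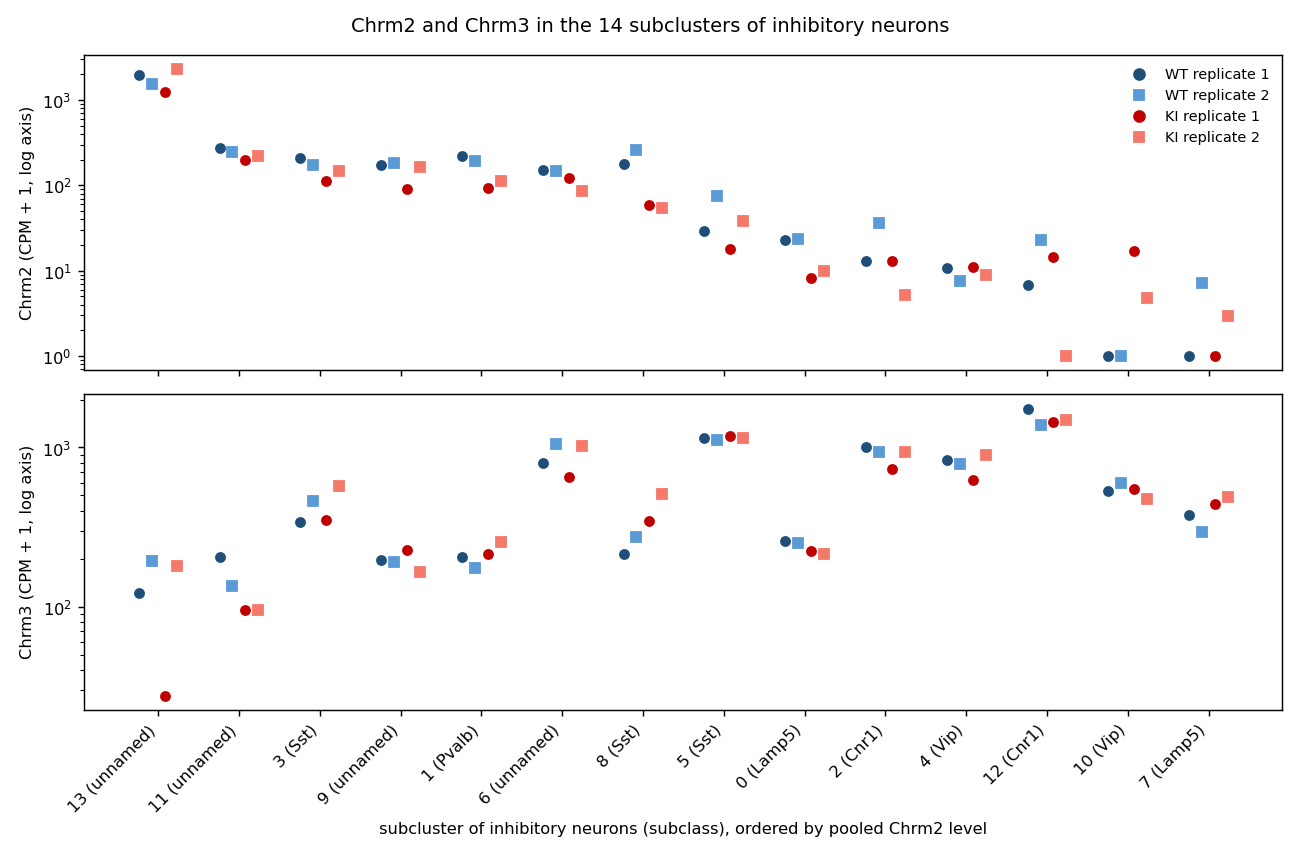
Chrm2 (top) and Chrm3 (bottom) in the 14 subclusters of inhibitory neurons, as CPM + 1 on a log axis, with 1 point per library and subclusters ordered by pooled Chrm2 level. Subcluster 13 stands alone at 1246 to 2314 CPM of Chrm2. For Chrm2, 8 of the 14 subclusters (0, 1, 2, 3, 6, 8, 9 and 11, named and unnamed) show both WT libraries above both KI libraries. In 5 the genotypes overlap, and in 1 both KI libraries lie above. All subclusters come from the same 4 mice, and the share of all genes with this order was not counted. CPM includes Malat1, which was higher in KI inhibitory neurons.

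Between genotypes, 1 of 16 tests of a receptor within a neuron class passed an adjusted p of 0.05, where 4.85% of the 69860 tests over all genes did. Chrm2 in mossy cells was that test. At an unadjusted p of 0.05, 3 of the 16 passed, where 23.2% of all tests did, the others being Chrm1 in DG granule neurons and Chrm2 in inhibitory neurons. Over all nuclei of a library together, 0 of the 5 receptors passed in edgeR, where 0.889% of 21718 genes did. Chrm1 was the 1 receptor with an unadjusted p under 0.05 there, at a log2 change of -0.42 (SE 0.11, adjusted p = 0.118). On simulated counts with these depths the test recovered 98% to 99% of 4-fold changes in DG, CA1, CA3 and inhibitory sums and 85.1% in mossy cells. It recovered 13.2% to 35% of 2-fold changes, so a change of about that size could be missed in any class. The changed genes there had means of at least 10 CPM, and every gene had the same assumed spread. These rates therefore do not cover Chrm2 in DG, CA1 and CA3 neurons, nor Chrm4 and Chrm5. Fits without 1 KI library take the spread from the WT pair and assume that the remaining KI library varies like it. They called 16.5% (without KI replicate 1) and 34.6% (without KI replicate 2) of all tests, and a call in them is read against these shares. Without WT replicate 1 or 2 the shares were 1.35% and 1.82%.

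**Figure D3:**
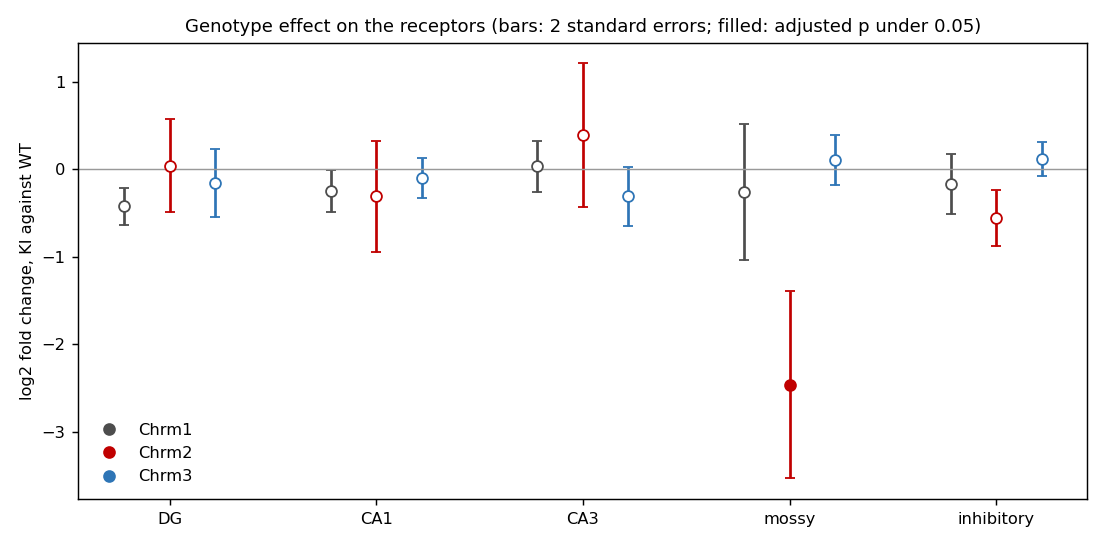
Log2 fold change of Chrm1, Chrm2 and Chrm3, KI against WT, in each neuron class (edgeR, 2 libraries per genotype); bars are 2 standard errors and a filled point has an adjusted p under 0.05. Only Chrm2 in mossy cells is filled, at -2.46, and Chrm2 in inhibitory neurons and Chrm1 in DG granule and CA1 neurons lie below 0 with bars that do not reach it, the CA1 bar ending at -0.0069.

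Chrm2 in mossy cells stood at 36.3 and 68.7 CPM in WT, from 29 and 35 UMIs, and at 3.76 and 13.7 CPM in KI, from 2 and 6 UMIs. Both WT libraries lay above both KI libraries. The fit put the log2 fold change at -2.46 (SE 0.53, adjusted p = 0.0384), where 0.663% of 6938 genes passed in this class. A Chrm2 UMI was present in 15 of 92 and 8 of 58 WT nuclei, and in 2 of 52 and 4 of 44 KI nuclei, against 0.836% to 1.44% of astrocytes, which were shallower. A single nucleus of WT replicate 2 held 22 of its 35 UMIs. Without the nucleus richest in Chrm2 in each library the levels were 30.9 and 26.5 CPM in WT against 1.94 and 7.23 CPM in KI, and the change was -2.58 on the log2 scale (SE 0.63, adjusted p = 0.0622, where 0.631% of genes passed). The call was lost without WT replicate 2 (-2.0, adjusted p = 0.324), without KI replicate 1 (-1.73, adjusted p = 0.064) and with library totals that left out Malat1 (-2.51, adjusted p = 0.0511). DESeq2 gave it no adjusted p, and at the finer resolution Chrm2 had too few UMIs in mossy cells to be tested. When nuclei were gated one by one, the 1 to 10 mossy cells left per library held 1 and 2 Chrm2 UMIs in WT (13 and 22 CPM) against 5 and 0 UMIs in KI (64.5 and 0 CPM), so KI replicate 1 lay above both WT libraries, and this was not tested. The 6 markers of inhibitory neurons summed to 82.7 and 43.2 CPM in the WT mossy cells and to 30.1 and 25.2 CPM in the KI mossy cells, with all 6 detected, and the mossy cell list summed to 392 and 375 CPM against 269 and 273 CPM. The part of these in the Chrm2 difference was not tested. The nucleus with 22 Chrm2 UMIs had 0 UMIs of the inhibitory markers and 5 UMIs from 2 mossy cell markers. The richest nucleus of WT replicate 1, with 5 Chrm2 UMIs, had 5 UMIs from 4 inhibitory markers and 7 UMIs from 3 mossy cell markers. Those of KI replicates 1 and 2, with 1 and 3 Chrm2 UMIs, had 0 UMIs of the inhibitory markers. They had 5 and 0 UMIs of the mossy cell markers. Chrm3 and Chrm1 in mossy cells as a class had log2 fold changes of 0.10 (SE 0.14) and -0.26 (SE 0.39), and neither passed.

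In inhibitory neurons Chrm2 was at 161 ± 8.57 CPM in WT and 102 ± 28.3 CPM in KI (mean ± SD, n = 2 each), with both WT libraries above both KI libraries. The log2 fold change was -0.56 (SE 0.16, adjusted p = 0.116), in a class where 1.13% of genes passed. It did not pass without WT replicate 1 (-0.49, adjusted p = 0.503, where 0.265% of genes passed) or WT replicate 2 (-0.64, adjusted p = 0.243, where 0.278% passed). Without KI replicate 1 it was -0.33 (adjusted p = 0.0162, where 8.4% of genes passed) and without KI replicate 2 -0.84 (adjusted p = 1.51e-13, where 29% of genes passed). Subcluster 13, with 19 to 32 nuclei per library, had genotypes that overlapped. Without its nuclei, inhibitory neurons held 99.0 and 112 CPM in WT against 56.2 and 66.8 CPM in KI. No test is given for either, since the subcluster was picked for its Chrm2 level after values had been seen.

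The subclasses were tested after their values had been seen. In Sst interneurons Chrm2 fell from 149 and 157 CPM to 62.2 and 85.8 CPM (log2 fold change -0.91, SE 0.16, adjusted p = 0.0128, where 1.72% of genes passed). The call held without each library in turn and under the other alternatives run on it, with -1.34 (adjusted p = 0.0223) at the finer subclustering. In Pvalb interneurons the log2 fold change was -0.88 (SE 0.19, adjusted p = 0.0326, where 0.511% of genes passed), and the call was lost without WT replicate 1 (adjusted p = 0.266), WT replicate 2 (adjusted p = 0.0645) or KI replicate 1 (adjusted p = 0.0678). It was also lost at the finer subclustering (-0.71, adjusted p = 0.0702), with thinned sums (-0.85, adjusted p = 0.0745) and in DESeq2 (-0.89, adjusted p = 0.219). The finer subclustering split most Pvalb nuclei into a subcluster rich in Chrm2 (261 and 355 CPM in WT against 148 and 190 CPM in KI) and a poor one. The poor one held 11.9 CPM in WT replicate 2 against 7.89 and 21.9 CPM in KI, and 118 CPM in WT replicate 1 from 17 nuclei. The rich and the poor one had 45 and 17 nuclei in WT replicate 1, 65 and 77 in WT replicate 2, 58 and 59 in KI replicate 1 and 92 and 110 in KI replicate 2. The part of this mix in the Pvalb difference was not tested. Lamp5 interneurons had the lowest ratio, from 18.0 ± 0.46 to 5.75 ± 0.59 CPM (mean ± SD, n = 2 each), with genotypes that did not overlap, but did not pass (-1.53, SE 0.46, adjusted p = 0.0608, where 3.44% of genes passed). The genotypes of the other 2 named subclasses were not ordered in this way. In Vip interneurons Chrm2 lay the other way, at 6.02 and 4.2 CPM in WT against 12.4 and 6.19 CPM in KI from 17 UMIs in all, too few to be tested. In Cnr1 interneurons Chrm2 had a fitted log2 fold change of -1.35 (SE 0.56, unadjusted p = 0.0254, adjusted p = 0.409 in edgeR, where 0.386% of genes passed) with genotypes that overlapped, at 10.2 and 33.2 CPM in WT against 12.3 and 3.11 CPM in KI. Its larger subcluster 2 had the WT libraries (12.1 and 35.4 CPM) above the KI libraries (11.8 and 4.18 CPM), by a narrow margin. Among the 3 Sst subclusters, the WT and KI libraries were apart in subcluster 3 (211 and 171 CPM against 110 and 147 CPM) and in subcluster 8 (178 and 258 CPM against 57.5 and 53.1 CPM), and overlapped in subcluster 5 (28.4 and 73.1 CPM against 17.1 and 37.5 CPM). The separation was not limited to named subclasses. The unnamed subclusters 6 (151 and 145 CPM against 122 and 84.8 CPM), 9 (172 and 183 CPM against 88.7 and 162 CPM) and 11 (276 and 246 CPM against 198 and 221 CPM) also had both WT libraries above both KI libraries, whereas in the Vip subcluster 10, with 5 UMIs, both KI libraries lay above. Chrm3 in Sst interneurons was 0.31 higher in KI on the log2 scale (adjusted p = 0.211), which did not pass. Markers of the subclasses moved too, some down and some up. The Pvalb list summed to 2328 CPM in both WT libraries of Sst interneurons against 1769 and 1966 CPM in KI, and in Pvalb interneurons to 4186 and 4549 CPM against 3677 and 3974 CPM. In Lamp5 interneurons the Sst list summed to 258 and 296 CPM against 174 and 210 CPM and the Pvalb list to 624 and 598 CPM against 462 and 535 CPM. The Sst list in Pvalb interneurons lay the other way, at 153 and 161 CPM against 212 and 215 CPM. The Vip list was higher in KI in all 3, at 15.2 and 12.5 CPM against 29 and 32.1 CPM in Sst, 10.6 and 18 CPM against 25.3 and 28.1 CPM in Pvalb and 9.62 and 12.1 CPM against 19.6 and 26.2 CPM in Lamp5 interneurons. The Cnr1 list was lower in KI in Sst (217 and 239 CPM against 162 and 174 CPM) and Pvalb interneurons (151 and 179 CPM against 101 and 140 CPM). The genotypes overlapped for the Sst list in Sst interneurons (944 and 975 CPM against 779 and 958 CPM) and for the Lamp5 list in Lamp5 interneurons (516 and 708 CPM against 425 and 641 CPM). The part of these in the Chrm2 differences was not tested, and neither was whether the Chrm2 change differs between the subclasses.

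**Figure D4:**
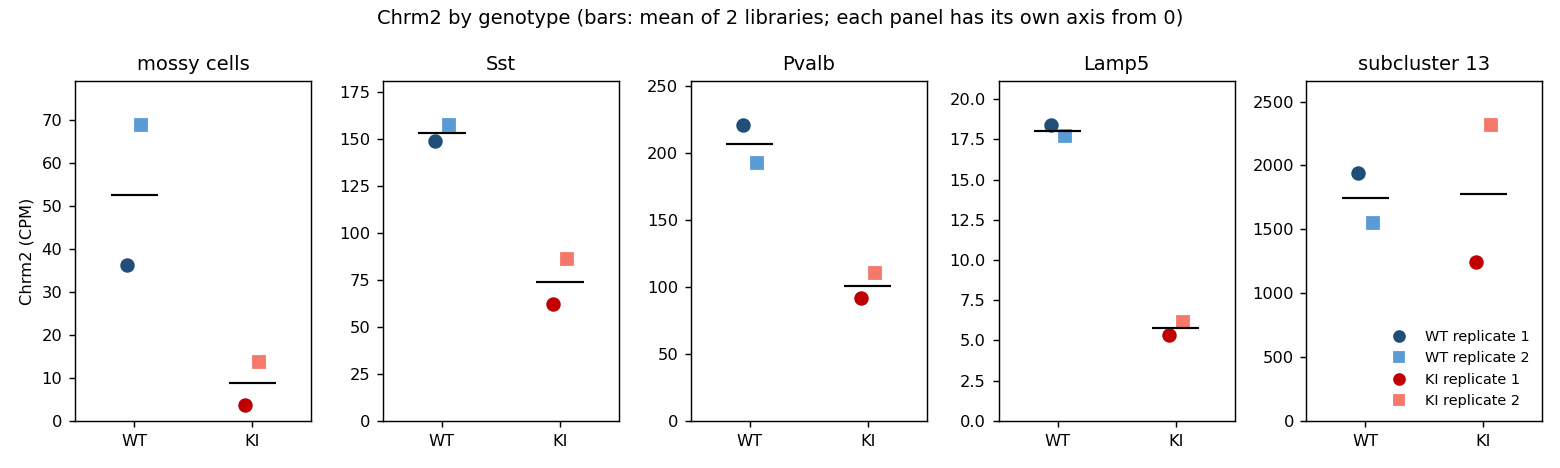
Chrm2 (CPM) by genotype in mossy cells, in Sst, Pvalb and Lamp5 interneurons and in inhibitory subcluster 13, with 1 point per library, a bar at the mean of the 2 libraries and a separate axis from 0 in each panel. Both WT libraries lie above both KI libraries in the first 4 panels, and the genotypes overlap in subcluster 13; Vip and Cnr1 interneurons are not drawn.

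Chrm1 in DG granule neurons, at 64.8 ± 2.05 CPM in WT and 44.1 ± 1.78 CPM in KI (mean ± SD, n = 2 each), had WT and KI libraries apart and a fitted log2 change of -0.43 (SE 0.10, adjusted p = 0.0574, where 9.36% of genes passed). With library totals in place of the TMM factors it was -0.55 (adjusted p = 0.0292). Glia had the same order, with Chrm1 at 44.2 and 39.4 CPM in WT astrocytes against 28 and 29 CPM in KI, at 46.5 and 40.5 CPM against 27.6 and 30.9 CPM in OPC and at 43.3 and 48.6 CPM against 23.7 and 42 CPM in microglia. The part of what moved in glia in the DG difference was not tested. Neither of the 2 large DG clusters passed when taken alone. In the Dsp and Glis3 cluster Chrm1 stood at 63.1 and 66.5 CPM in WT against 71.4 and 51.3 CPM in KI (log2 fold change -0.03, adjusted p = 0.952). In the Gm6999 and Pappa cluster it stood at 66.1 and 59.3 CPM in WT against 40.4 and 43.8 CPM in KI (-0.51, adjusted p = 0.232). In CA1 neurons Chrm1 changed by -0.25 on the log2 scale in the fit (SE 0.12, adjusted p = 0.241), in CA3 neurons 0.03 (SE 0.15, adjusted p = 0.927) and in inhibitory neurons -0.17 (SE 0.17, adjusted p = 0.627).

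Chrm3 did not pass in any neuron class as a whole, with log2 fold changes of -0.31 in CA3 (SE 0.17), -0.16 in DG (SE 0.19), -0.10 in CA1 (SE 0.11) and 0.12 in inhibitory neurons (SE 0.10). KI replicate 1 held the lowest Chrm3 level of the 4 libraries in each of these classes. Without KI replicate 2, Chrm3 passed in CA3 (-0.62, adjusted p = 1.71e-14), DG (-0.47, adjusted p = 0.000822) and CA1 (-0.28, adjusted p = 2.67e-07), where 34%, 45% and 44% of all genes in these classes passed. In CA1 at the finer resolution the change turned to 0.51 (adjusted p = 0.0241).

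The DG clusters taken alone, which was done after values had been seen, gave another picture for Chrm3. In the Gm6999 and Pappa cluster Chrm3 stood at 186 and 202 CPM in WT, from 213 and 175 nuclei, and at 32.4 and 50.6 CPM in KI, from 2238 and 1576 nuclei. The WT libraries were apart from the KI libraries and also above every library of the Dsp and Glis3 cluster, which held 45 and 39.7 CPM in WT against 33.9 and 55.5 CPM in KI. Within the Gm6999 and Pappa cluster Chrm3 was lower in KI (log2 fold change -2.17, SE 0.20, adjusted p = 1.29e-05, where 3.57% of genes passed). This cluster held 4.94% and 5.30% of the DG granule neurons in WT against 89.5% and 65.0% in KI. The fit therefore sets a small part of the WT granule neurons against most of those in KI, not matched cells. In the Dsp and Glis3 cluster the Chrm3 change was 0.31 (adjusted p = 0.396, where 4.01% of genes passed). The Gm6999 and Pappa cluster kept the Chrm3 call without each library in turn, with log2 fold changes of -2.45 to -1.88 and no adjusted p above 1.05e-07, in fits where 1.65% to 21.5% of genes passed. In the Dsp and Glis3 cluster Chrm3 was 0.50 (adjusted p = 0.0206) without KI replicate 1 and turned to -0.21 (adjusted p = 0.596) without KI replicate 2. In the Gm6999 and Pappa cluster the 8 DG markers summed to 5036 and 4806 CPM in WT against 4927 and 5581 CPM in KI, the 6 inhibitory markers to 159 and 117 CPM against 88.4 and 96.3 CPM, the 7 CA3 markers to 536 and 522 CPM against 374 and 392 CPM, and the Cajal-Retzius list to 137 and 113 CPM against 38.2 and 51.5 CPM. The mossy cell list, of the class richest in Chrm3, summed to 67.2 and 60.5 CPM against 34.2 and 41.6 CPM there, and to 64.6 and 71.4 CPM against 32 and 42.9 CPM in the Dsp and Glis3 cluster. In the Gm6999 and Pappa cluster the CA2 list summed to 125 and 130 CPM against 81 and 99.2 CPM, and the OPC list to 207 and 270 CPM against 197 and 155 CPM, where the Dsp and Glis3 cluster held 43.8 to 85.1 CPM of the OPC list. Their part in the Chrm3 difference was not tested.

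The genotype effect was also compared between classes in 1 fit. Of 30 receptor and class pair tests, 3 passed, where 4.82% of the 168540 tests over all genes did. The genotype effect on Chrm2 differed between DG granule neurons and mossy cells by 2.51 on the log2 scale (SE 0.52, adjusted p = 0.00455, where 2.79% of genes passed), and not without WT replicate 2 (adjusted p = 0.111) or KI replicate 1 (adjusted p = 0.148). For Chrm1 the effect in DG lay 0.44 below that in CA3 neurons (difference -0.44, SE 0.13, adjusted p = 0.0245, where 11.1% of genes passed), which was lost without WT replicate 1, WT replicate 2 or KI replicate 2 (adjusted p = 0.114, 0.34 and 0.135). For Chrm3 the effect in CA3 lay below that in inhibitory neurons (difference -0.45, SE 0.12, adjusted p = 0.0442, where 2.31% of genes passed), and the call held only without KI replicate 2 among the fits that left out 1 library.

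Genes of acetylcholine signalling around the receptors were followed with a list of 53 genes, of which 30 to 47 were tested per class. The list includes 5 genes that make, carry or break down acetylcholine and 8 nicotinic receptor genes, which are not downstream of the muscarinic receptors. In DG granule neurons 5 rose and 7 fell of 45, in CA1 neurons 2 rose and 2 fell of 47, in CA3 neurons 1 rose and 2 fell of 45, in mossy cells 1 rose of 30, and in inhibitory neurons 0 of 45 passed in edgeR. In inhibitory neurons 7 had an unadjusted p under 0.05, where 19.7% of all genes did, and DESeq2 called 2, both lower in KI, where it called 1.96% of all genes. Without 1 library these counts moved. In DG 1 rose and 2 fell without WT replicate 1 and 0 rose and 2 fell without WT replicate 2, where 1.43% and 1.34% of all genes passed. Without KI replicate 1 or 2 it was 10 and 15, or 9 and 18, where 25.7% and 45% passed. In CA1 it was 1 and 1, or 2 and 1, without WT replicate 1 or 2, where 3.99% and 4.38% passed, and 5 and 13, or 8 and 16, without KI replicate 1 or 2, where 25.8% and 44% passed. In CA3 it was 0 and 0, or 1 and 0, without WT replicate 1 or 2 (0.0316% and 1.84% of all genes), and 4 and 6, or 7 and 12, without KI replicate 1 or 2 (12.3% and 34%). In inhibitory neurons it stayed at 0 without either WT library (0.265% and 0.278%), and was 0 and 5, or 3 and 9, without KI replicate 1 or 2 (8.4% and 29%). Library totals gave 2 falls there (1.44% of all genes), the replicate block 3 (3.67%) and thinned sums 1 (2.19%). Without the low-count filter 5 of 53 fell there (5.01%). In mossy cells 1 rose without either WT library (0.421% and 0.428%), 2 rose without KI replicate 1 (1.34%), and 1 rose and 1 fell without KI replicate 2 (4.9%). The counts with all 4 libraries stand beside 9.36%, 7.43%, 2.81%, 0.663% and 1.13% of all genes in the same classes.

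The genes that make and clear acetylcholine were tested for 1 to 3 of 5 members per class, with list medians of 0.00 to 0.66. Chat, which makes acetylcholine, and the transporters Slc18a3 and Slc5a7 stood at 0 to 2.71 CPM in every neuron class, so these classes held little transcript of cholinergic neurons. Bche, a cholinesterase, was the 1 member that rose, in CA3 neurons, from 35.6 and 40.3 CPM in the WT mice to 52.7 and 87.6 CPM in KI. The genotypes did not overlap, and the log2 fold change was 0.96 (SE 0.21, adjusted p = 0.0499), a call lost without WT replicate 1 (adjusted p = 0.499) and under 6 of the other 14 alternatives run. Ache, the main cholinesterase of synapses, passed in no class.

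In the Gq arm, which runs from the G proteins through phospholipase C to calcium stores and protein kinase C, 1 of 10 tested genes rose and 3 fell in DG granule neurons, 1 of 11 fell in CA1, 1 of 10 fell in CA3, and none of 7 in mossy cells passed. The median log2 fold change of the list was -0.11 to 0.01 over the 5 classes, and that of all genes -0.01 to 0.00. Itpr1, the calcium release channel of the endoplasmic reticulum, had the largest fall of the list in DG. In DG granule neurons it stood at 379 and 368 CPM in WT against 49.4 and 100.2 CPM in KI, with genotypes far apart (log2 fold change -2.21, SE 0.28, adjusted p = 0.00985). In CA1 neurons it stood at 533 and 507 CPM in WT against 317 and 376 CPM in KI (-0.49, SE 0.09, adjusted p = 0.0236). The DG call held without each library, and the CA1 call was lost without WT replicate 1 (adjusted p = 0.193) or WT replicate 2 (adjusted p = 0.0889), and when nuclei were gated one by one (adjusted p = 0.0578).

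Prkcb, a protein kinase C that responds to calcium and diacylglycerol, fell in DG from 181 and 184 CPM to 90.4 and 79.7 CPM (log2 fold change -0.97, SE 0.12, adjusted p = 0.00888). In CA3 it fell from 423 and 422 CPM to 288 and 286 CPM (-0.48, SE 0.09, adjusted p = 0.0352). Each of these genotype pairs was apart, and each call was lost without either WT library, at adjusted p-values of 0.0733 and 0.0793 in DG and 0.578 and 0.264 in CA3. The CA3 call was also lost without doublet removal (adjusted p = 0.0546). Among the phospholipases that Gq activates, Plcb4 rose in DG from 12.5 and 6.86 CPM to 22 and 26.3 CPM (log2 fold change 1.44, SE 0.28, adjusted p = 0.0307), which was lost without WT replicate 2 (adjusted p = 0.143), without doublet removal (adjusted p = 0.0742) and with gated nuclei (adjusted p = 0.0824). Plcb1, which the naming rule did not take, fell in DG, from 1230 and 1263 CPM in the WT mice to 778 and 852 CPM in KI.

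In the Gi/o arm, with the inhibitory G proteins and the adenylyl cyclases they act on, 1 of 11 genes rose and 1 fell in both DG and CA1, none of 11 passed in CA3, and 1 of 10 rose in mossy cells. The list medians, -0.19 to -0.11, were below 0 in all 5 classes. Adcy8, an adenylyl cyclase stimulated by calcium, was called in opposite directions. In CA1 neurons it fell from 118 and 122 CPM to 41.4 and 29.3 CPM (log2 fold change -1.66, SE 0.19, adjusted p = 0.00644). In mossy cells it rose from 23.8 and 13.7 CPM to 84.5 and 59.6 CPM (1.98, SE 0.36, adjusted p = 0.0107). The genotypes were apart in both classes, and both calls held without each library in turn. The CA1 call was lost when nuclei were gated one by one (-0.72, adjusted p = 0.0994), and the mossy cell call without doublet removal (1.59, adjusted p = 0.0886) or with thinned sums (1.66, adjusted p = 0.0764). DESeq2 gave the mossy cell change no adjusted p.

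Adcy5, a cyclase inhibited by Gi, rose in DG from 18.5 and 20.4 CPM to 25.9 and 27.6 CPM (log2 fold change 0.59, SE 0.13, adjusted p = 0.0441) and in CA1 from 21.5 and 24.7 CPM to 32.3 and 34.0 CPM (0.61, SE 0.13, adjusted p = 0.0404). Gnai1, an inhibitory G protein subunit, fell in DG from 53.3 and 51.4 CPM to 25.7 and 35.3 CPM (-0.66, SE 0.15, adjusted p = 0.0490). In each case the genotypes did not overlap. All 3 calls were lost without WT replicate 1 (adjusted p = 0.483 and 0.429 for Adcy5, 0.350 for Gnai1) and without WT replicate 2 (adjusted p = 0.370, 0.151 and 0.303). The Adcy5 call in DG was also lost with library totals (adjusted p = 0.082), without doublet removal (adjusted p = 0.108), with thinned sums (adjusted p = 0.053) and in DESeq2 (adjusted p = 0.0625). The Adcy5 call in CA1 was lost with library totals (adjusted p = 0.0633) and gated nuclei (adjusted p = 0.286), and the Gnai1 call with totals that left out Malat1 (adjusted p = 0.0514) and gated nuclei (adjusted p = 0.234).

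Of the potassium channel genes that the receptors act on, 1 rose and 2 fell of 6 in DG, 1 fell of 6 in CA3, and none passed in CA1 or mossy cells. The list medians were -0.17 to 0.07. Kcnq3, a subunit of the M-current channels that Gq-coupled receptors close, fell in DG from 867 and 893 CPM to 537 and 590 CPM (log2 fold change -0.52, SE 0.08, adjusted p = 0.0161). In CA3 it fell from 648 and 655 CPM to 400 and 416 CPM (-0.59, SE 0.09, adjusted p = 0.0167). The 2 Kcnj subunits of G protein-gated channels that passed in DG went opposite ways. Kcnj6 fell from 670 and 687 CPM to 445 and 493 CPM (-0.41, SE 0.08, adjusted p = 0.0325), and Kcnj9 rose from 48.3 and 53.5 CPM to 90.4 and 74.3 CPM (0.83, SE 0.15, adjusted p = 0.0254). All 4 had genotypes apart, and all 4 calls were lost without either WT library, at adjusted p-values of 0.0645 to 0.441. The Kcnj9 call was also lost with gated nuclei (adjusted p = 0.0902).

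Among the regulators of the receptors, the arrestins, receptor kinases and RGS proteins that end their signals, 2 of 12 rose in DG, 1 of 12 rose in CA1 and none fell. The list medians were -0.17 to -0.02, so the members that rose did not have the sign of the list's median. Rgs4, which speeds the shutdown of Gq and Gi/o proteins, rose in DG from 6.38 and 6.73 CPM to 14.8 and 16.1 CPM (log2 fold change 1.36, SE 0.16, adjusted p = 0.00831), a call lost without WT replicate 1 (adjusted p = 0.0956) or WT replicate 2 (adjusted p = 0.0858). Rgs2, which acts mainly on Gq and lay below the level needed for naming, rose in DG and in CA1, where it stood at 3.72 and 4.43 CPM in WT against 9.76 and 11.2 CPM in KI.

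The nicotinic receptors, the ion channels for the same transmitter, had 1 to 5 of 8 members tested per class, with list medians of -0.15 to 0.22. Chrna7, the subunit of the homomeric alpha7 channel, fell in DG from 136 and 133 CPM to 50.5 and 55.4 CPM (log2 fold change -1.22, SE 0.10, adjusted p = 0.00351). The genotypes were far apart, and the call held without each library and under all 15 alternatives run. None of the other nicotinic genes passed in any class. As in DG as a whole, these DG values compare WT nuclei mostly of the Dsp and Glis3 cluster with KI nuclei mostly of the Gm6999 and Pappa cluster.

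**Figure D5:**
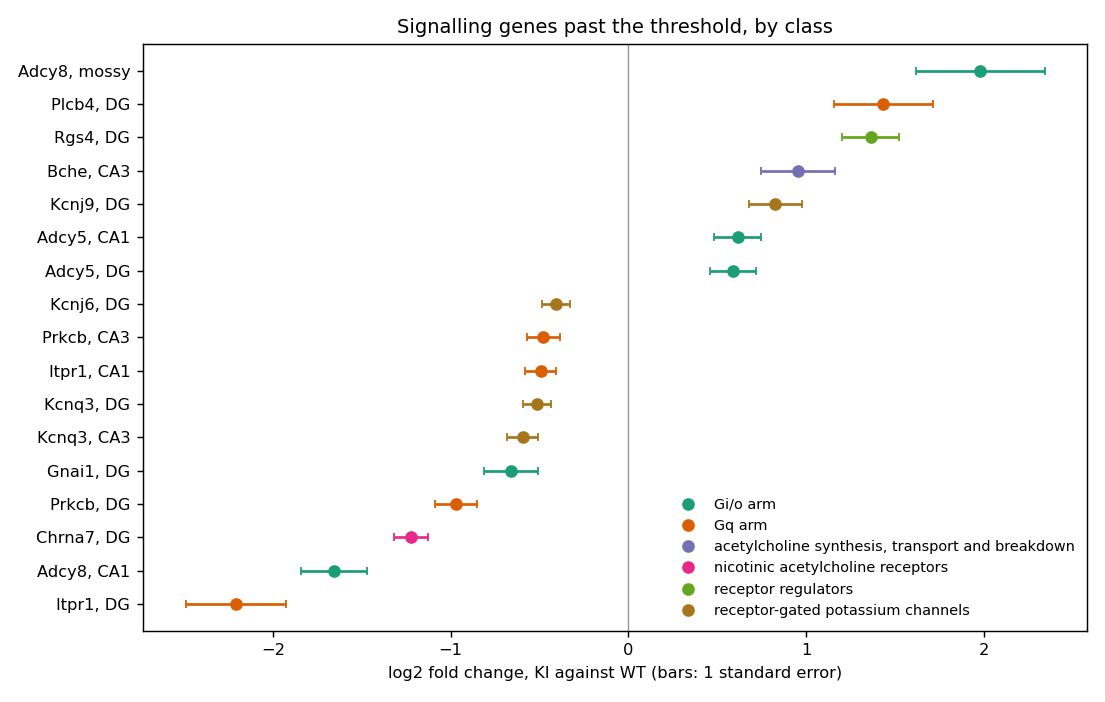
Log2 fold change, KI against WT, of the 17 named gene and class combinations from the signalling lists that passed an adjusted p of 0.05; bars are 1 standard error (edgeR, 2 libraries per genotype) and colours mark the list. Itpr1 in DG lies lowest at -2.21, and Adcy8 lies at -1.66 in CA1 and at 1.98 in mossy cells.

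Lastly, the genes whose level moved most like each receptor over the 20 sums of 5 classes and 4 libraries were listed as a description, since those sums share libraries and depth. Among 10752 genes, Cap2 (Pearson r 0.96), Mmd2 (0.95) and Camk2a (0.95) were closest to Chrm1. Hjurp (0.97), Zfp641 (0.97) and Adgrg6 (0.96) were closest to Chrm2, and Adgrg6 was also a leading gene of the subcluster richest in Chrm2. Gm47405 (0.99), Tenm4 (0.98) and Ppp2r2b (0.97) were closest to Chrm3. Gm47405 lies in an intron of Chrm3 on the same strand, so its level is uncertain. Chrm4 and Chrm5 were below 10 CPM in every class, so the genes nearest to them are not given.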

How the data were processed

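The authors deposited raw UMI counts per gene and nucleus from 10x Genomics libraries of mouse hippocampus, 1 matrix per library. Per the file headers they were made with Cell Ranger 7.0.1, and the submitters' processing notes name the mm10 genome; which annotation was used, and whether intronic reads were counted, was not given in the sources used here. Nuclei with at least 500 genes and at most 5% mitochondrial UMIs were kept, and Scrublet doublets (score above 0.25) were removed (3263 barcodes, 5.90%); 39 to 66 barcodes were shared per pair of libraries. Nuclei were clustered with scanpy 1.11.5 and Leiden (resolution 0.5), without the receptors and signalling genes, and clusters were named from fixed markers; naming thresholds and the splitting of mixed clusters were chosen after seeing the clusters. The receptors, gene lists and tests were chosen with earlier results of these data known. UMIs were summed per library and class, and tested with edgeR 4.0.16 (quasi-likelihood F test, TMM factors, filterByExpr, Benjamini-Hochberg adjusted p under 0.05 over all genes of a class; 20 nuclei per library at least). The mouse is the replicate, with 2 per genotype, where an exact permutation test of 1 value cannot go below 0.333. Signalling genes were named by rule, up to 2 per list, direction and class with the largest change among those past the threshold with a mean of at least 10 CPM. Of the 32285 gene IDs, 32158 were in GENCODE M21 (GRCm38). Other scalings, filters, clusterings and depths, DESeq2, a replicate block and fits without each library were run as alternatives, and the fits were tested on simulated counts with known changes. Floors for 0 UMIs (3 counts) cover counting error only.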

Additional observations from a re-analysis of the deposited data

Results flagged for a closer look

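For each of Chrm1, Chrm2 and Chrm3, 1 pair of neuron classes differed in the size of the genotype effect, by the contrast of the KI against WT changes in edgeR. Chrm4 and Chrm5 were not tested there. The effect on Chrm1 was lower in DG granule neurons than in CA3 pyramidal neurons, by -0.44 on the log2 scale (SE 0.13, adjusted p = 0.0245). Chrm2 differed between DG granule neurons and mossy cells by 2.51 (SE 0.52, adjusted p = 0.00455), with a mossy cell effect of -2.46 that rested on 72 UMIs. The effect on Chrm3 in CA3 pyramidal neurons was below that in inhibitory neurons, by -0.45 (SE 0.12, adjusted p = 0.0442). Each of these passed with all 4 libraries, and each was lost in at least 2 of the 4 fits that left out 1 library.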

How the results depend on the processing

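The receptor calls between KI and WT (1 of 16) became 2 with library totals, 0 with totals that left out Malat1, 4 without the low-count filter, 0 without doublet removal, 0 in DESeq2 and 0 to 7 without 1 library. The share of all tests that passed was 4.85% as reported and 3.64% to 5.91% under these and the other settings, but 9.39% with the replicate block and 1.35% to 34.6% without 1 library, the highest being without KI replicate 2, which also gave the 7 calls. The calls between neuron classes (24 of 30, where 36.6% of all tests passed) were 22 to 24 without 1 library, where 29.3% to 32.9% passed. They were 13 when nuclei were gated one by one, where 40.6% of all tests without mossy pairs passed. Gated mossy cells had 1 to 10 nuclei per library, so their pairs were left out of that count, and the other 18 tests gave 13 calls as reported too. The calls on the genotype effect between classes (3 of 30, where 4.82% of all tests passed) became 6 without the filter (3.56%) and 1 without doublet removal (4.85%). With gated nuclei 1 of the 18 tests without mossy pairs passed (3.26% of all such tests), where 2 passed as reported. Without 1 library the count moved both ways. Same-numbered libraries did not deviate together (r of -0.109 to 0.0805). With 2 mice per genotype this cannot settle whether the replicate numbers pair the mice. A replicate block gave 1 call, where 9.39% of all tests passed. The crossed pairing, chosen after seeing the data, gave 2, with no share of all tests given here to read it against.

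These KI against WT changes turned sign, none with an adjusted p under 0.05 on the turned side but the last. With library totals, Chrm1 in CA3 was -0.047, Chrm2 in DG -0.084 and Chrm3 in mossy cells -0.0052. Over the fits without 1 library, Chrm1 ran from -0.096 to 0.15 in CA3 and from -0.52 to 0.027 in mossy cells. Chrm2 ran from -0.022 to 0.75 in CA3 and from -0.060 to 0.14 in DG, and Chrm3 from -0.28 to 0.044 in CA1, from -0.47 to 0.10 in DG and from -0.041 to 0.24 in mossy cells. Without doublet removal Chrm2 in CA3 was -0.51, and with gated nuclei Chrm3 in DG was 0.26. At the finer clustering Chrm2 was 0.42 in CA1 and -0.80 in CA3, and Chrm3 was 0.51 in CA1.

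Chrm1 in DG minus CA1 turned to 0.099 with library totals, 0.10 without Malat1, 0.015 with relative log expression factors and 0.0065 without the filter, and ran from -0.032 to 0.059 without 1 library. Chrm2 in CA1 minus CA3 was 0.87 with gated nuclei (adjusted p = 0.00574) and -0.29 to 0.087 without 1 library, and in DG minus CA1 -0.054 with gated nuclei. Chrm2 in DG minus CA3 was -0.59 without doublet removal and -0.49 at the finer clustering. Chrm3 in CA1 minus mossy cells was 0.19 without doublet removal, 0.50 at the finer clustering and -0.093 to 0.0023 without 1 library.

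In the Dsp and Glis3 cluster taken alone, Chrm2 was -1.03 and Chrm3 0.31, opposite to DG as a whole. There Chrm1 was -0.23 to 0.25 without 1 library, 0.0074 with the replicate block and 0.55 in thinned sums, and Chrm3 was -0.21 to 0.50 without 1 library. In the Gm6999 and Pappa cluster Chrm2 was -0.13 to 0.57 without 1 library. The cause of these changes was not tested. Chrm2 in mossy cells had no value at the finer clustering or without doublet removal, where it did not pass the filter, and no adjusted p in DESeq2.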
